A study of Mus musculus with 24 samples.

Results

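Rab genes encode small GTPases that mark the membranes of the secretory and endocytic pathways. The genes described here are all those whose symbol in the deposited mRNA table is Rab followed by a number and at most a letter and a further digit. There were 59 such genes, with 256 transcripts, of 36096 genes in all. They were followed in the medial frontal cortex of C57BL/6J mice at postnatal day 28, in 4 groups of 3 ribosomal RNA-depleted libraries. OE-M and OE-F are the males and females born to crosses between Dnmt3l conditional knock-in mice and Emx1-cre mice. CON-M and CON-F are the males and females of the Emx1-cre line. The genotype labels name Emx1-cre in all 4 groups, and the knock-in allele separates OE from CON. The Emx1 promoter drives Cre in progenitors of the dorsal forebrain, which give rise to excitatory neurons and to part of the glia, and the sampled tissue also holds cells outside that lineage. Dnmt3l encodes a cofactor of the de novo DNA methyltransferases that has no catalytic activity of its own. Whether each numbered sample is its own animal is not stated in the labels, and the p-values therefore reflect only how far these samples vary, in part perhaps for technical reasons.

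A Rab protein switches between a GTP-bound form, which sits on a membrane and binds effectors such as tethers and motor adaptors, and a GDP-bound form, which GDP dissociation inhibitors hold in the cytosol. Exchange factors load GTP, GTPase-activating proteins speed its hydrolysis, and an escort protein presents each new Rab to a geranylgeranyl transferase that adds its lipid anchors. In neurons Rab proteins are known for the docking of synaptic vesicles, the passage of receptors through endosomes, the delivery of membrane to dendrites and axons, and the transport of signalling endosomes towards the cell body.

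Total counts were 22144970 to 26842726 in the OE libraries and 27074837 to 32100277 in the CON libraries. Dnmt3l itself stood at 20.7 to 45.8 CPM (gene counts scaled to a common library total after TMM) in the 6 OE libraries, against 0 to 0.102 CPM in the 6 CON libraries. One library, OE-F 1, stood apart from the other 5 OE libraries in most Rab genes although its Dnmt3l level was the highest, so counts over the family are given with and without it, as are the changes of the members described library by library. Transcripts of a 10-gene liver list summed to 68.6, 83.5 and 87.2 CPM in CON-M 3, CON-F 1 and CON-F 2, and to at most 1.89 CPM in the OE libraries. None of the 9 excitatory neuron genes was at 0 in all libraries. The same held for the 10 liver genes, so this does not test the tissue label.

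Per length, the Rab family in this tissue was led by a few members. Rab6b, the neuronal Golgi Rab, averaged 235 FPKM, a level per transcript length and library size, over the 12 libraries, and Rab3a, the main Rab of synaptic vesicles, averaged 227 FPKM. Rab7 of late endosomes followed at 137 FPKM, ahead of the Golgi gene Rab6a at 103 FPKM and the endosome-to-Golgi gene Rab14 at 91.5 FPKM. The 6 highest members held 47.7% of all Rab FPKM, 36 members averaged 10 FPKM or more, and 7 were below 0.5 FPKM. Members were tested where at least 3 libraries reached 0.5 FPKM, which left 52 of the 59. The 7 that were not tested are Rab17, Rab19, Rab20, Rab25, Rab38, Rab39 and Rab44, several of which are known from epithelia or pigment cells.

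**Figure D1:**
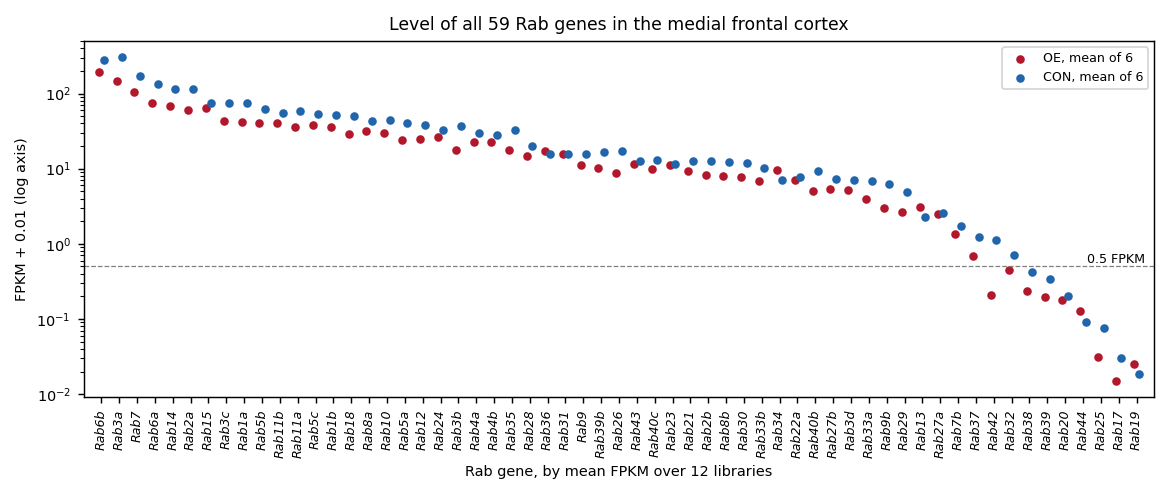
Mean FPKM of each of the 59 Rab genes in OE (red, left) and CON (blue, right) libraries, n = 6 each, on a log axis after adding 0.01, in order of the mean over all 12 libraries. The dashed line is at 0.5 FPKM; 36 members average 10 FPKM or more.

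Most Rab genes were lower in OE cortex. Averaged over the sexes, 38 of the 52 tested members were lower at an adjusted p below 0.05 (edgeR quasi-likelihood test, Benjamini-Hochberg over 15786 genes), which is 73.1% of them. Of all tested genes, 26.4% were lower. Rab32 and Rab42, both among the 38, passed the filter on level only through their CON values. Log2 changes and adjusted p-values below are from this edgeR fit unless another tool is named. Only Rab34 and Rab13 were higher, 3.85% of the members, where 25.2% of all tested genes were higher, and 12 members passed in neither direction. The median log2 change was −0.49 over the members and 0.02 over all tested genes. The 12 smallest adjusted p-values belonged to Rab26, Rab30, Rab9b, Rab10, Rab3c, Rab2a, Rab35, Rab3b, Rab1a, Rab2b, Rab5b and Rab39b. In bulk RNA, fewer cells of a type and less RNA per cell cannot be told apart.

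Counted together, the 59 genes took 0.315 ± 0.0048% of gene counts in OE-M and 0.384 ± 0.109% in OE-F, against 0.5395 ± 0.0055% in CON-M and 0.544 ± 0.0088% in CON-F (SD, n = 3 each). The wide spread in OE-F came from OE-F 1 at 0.51%, while the other 5 OE libraries stood between 0.309% and 0.326%. Without OE-F 1, 40 of the 52 members were lower (32.8% of all tested genes) and the same number as before, 2, were higher (30.1% of all tested genes). Without the 3 CON libraries that held liver transcripts, 30 members were lower and 2 higher, where 15.5% and 12.2% of all tested genes were lower and higher. All 6 OE libraries lay below all 6 CON libraries in 15 members, 28.8% of the 52, against 6.83% of all tested genes. The 5 OE libraries other than OE-F 1 lay below all 6 CON libraries in 35 members, 67.3%, against 23.7% of all tested genes. No member had the 5 OE libraries above all CON libraries, against 19.4% of all tested genes, and none had all 6 above, against 5.47%.

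**Figure D2:**
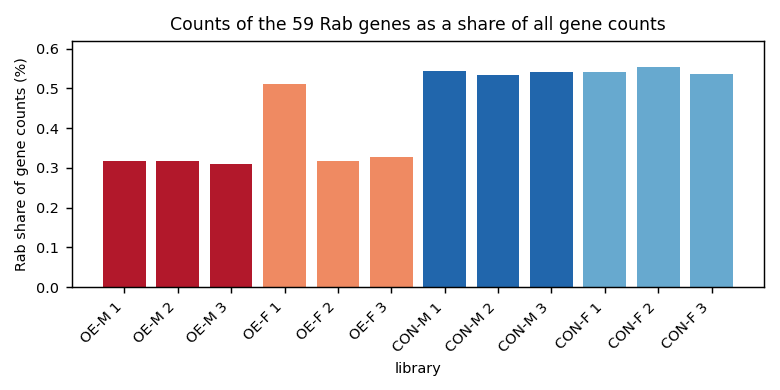
Counts of the 59 Rab genes as a percentage of all gene counts in each library (bars, from 0), OE left of CON. Of the OE libraries, 5 lie between 0.309% and 0.326%, and OE-F 1 is at 0.51%.

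Markers of cell types moved with genotype alongside the Rab genes. The summed level of 8 astrocyte genes was 11985 to 14557 CPM in the 5 OE libraries, 7659.8 CPM in OE-F 1 and 6956.5 to 7470.6 CPM in CON. For 8 microglial genes the sums were 488 to 606 CPM, 302.5 CPM and 278 to 312.5 CPM in the same order, and for 8 endothelial and pericyte genes 491 to 595 CPM, 318 CPM and 285 to 313 CPM. Called higher were 7 of the 8 astrocyte genes, all 8 microglial genes and all 8 endothelial and pericyte genes. The remaining astrocyte gene was called lower. The 5 general neuronal genes summed to 4290.8 to 4446 CPM in the 5 OE libraries, 5775 CPM in OE-F 1 and 4814 to 5329.5 CPM in CON, with 3 called lower and 2 higher. The 9 excitatory neuron genes summed to 6156 to 7164 CPM, 5954 CPM and 4587.5 to 5502 CPM in that order, with 4 called lower and 2 higher. The 7 inhibitory neuron genes summed to 487 to 611 CPM, 567 CPM and 614.5 to 703 CPM, with 4 called lower and 2 higher. Sums for 5 oligodendrocyte precursor genes were 303 to 402 CPM, 198 CPM and 192 to 241 CPM, and for 8 oligodendrocyte genes 6418 to 10974 CPM, 3534 CPM and 3681 to 6775 CPM, in that order. Of the precursor genes 3 were called higher and none lower, and of the oligodendrocyte genes 4 higher and 1 lower. The 5 red blood cell genes summed to 164 to 218 CPM in the 5 OE libraries, 72.2 CPM in OE-F 1 and 106 to 513 CPM in CON, with 4 called lower. For 7 genes known from striatum the sums were 186 to 893 CPM, 197 CPM and 483 to 843 CPM in that order, with 1 called lower, and the lowest of the 5 was OE-F 2. Mitochondrially encoded transcripts took 5.54% to 7.26% of counts in the 5 OE libraries, 3.71% in OE-F 1 and 2.62% to 3.57% in CON. The part of these differences in the Rab results was not tested.

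**Figure D3:**
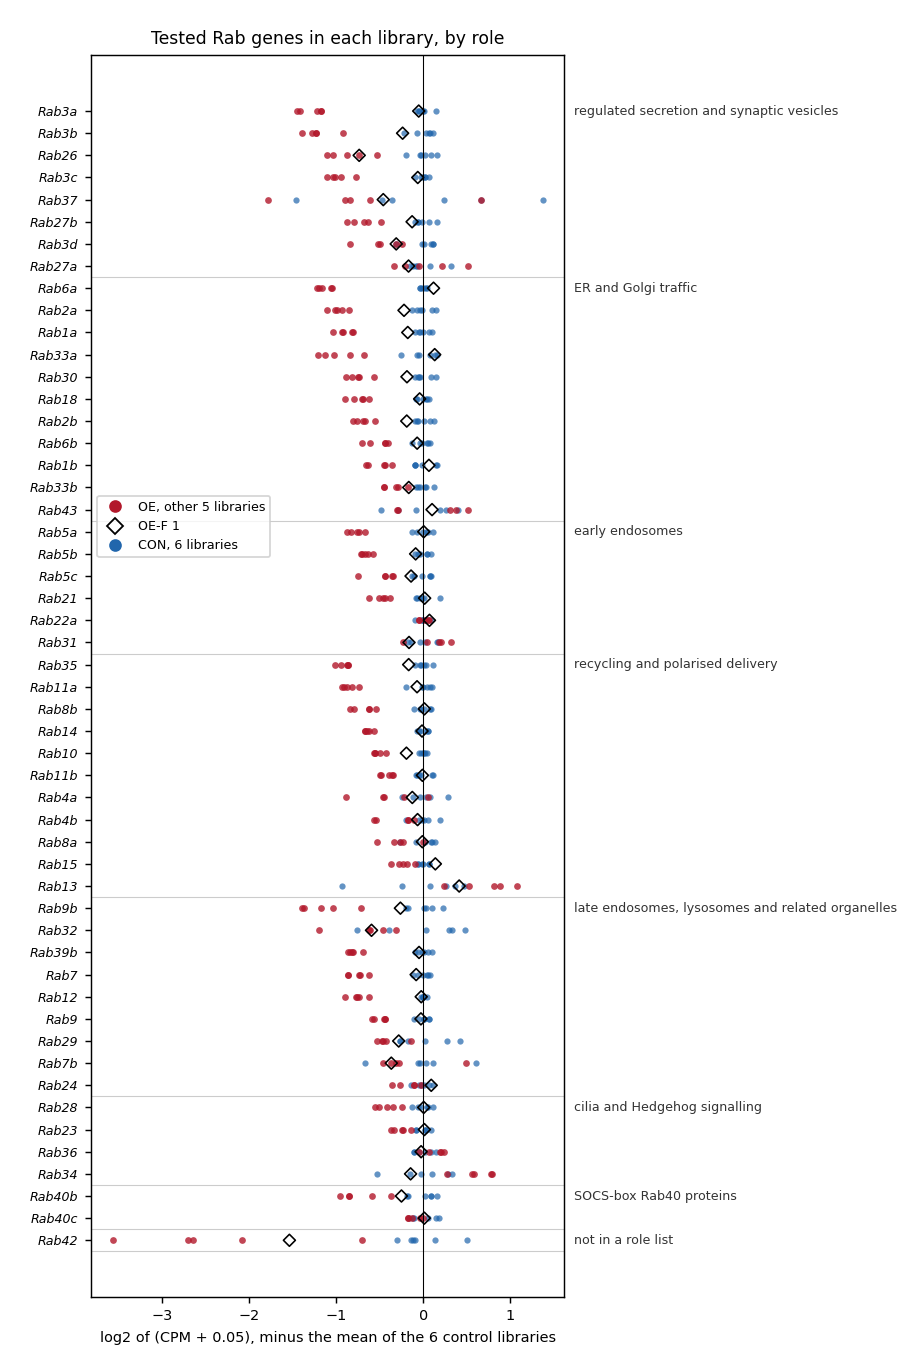
The 52 tested Rab genes by role, each library as log2 of CPM + 0.05 minus the mean of the 6 CON libraries. Red points (5 OE libraries) lie left of the blue points (6 CON libraries) without overlap in 35 members; the open diamond is OE-F 1, which lies within the CON range in 22 of the 38 members called lower.

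Because so many members moved together, the promoters of 4 members are shown. RefSeq windows on GRCm38.p6 ran from 250 bases before to 50 bases after the start. They were used for 48 of the 59 members, 60 windows in all. The other 11 members, among them Rab18 and Rab27b, both called lower, are not in the Rab windows described here. Their absence does not mean that they have no RefSeq window, and the Rab medians and percentages below leave them out. The median ratio of observed to expected CpG was 0.734 in the Rab windows and 0.384 in 32851 windows of all genes. The windows of all genes, here and in the motif search below, were not limited to genes tested in this tissue. The 35 windows of 32 members called lower had a median of 0.754 and the 16 windows of 9 members that did not pass a median of 0.737. The 4 windows of the 2 higher members had a median of 0.667. The 5 windows of 5 members that were not tested had a median of 0.388, near that of all genes. The GC box GGGCGG, searched on both strands, was found in 68.3% of the Rab windows and 35.7% of all windows, and the cyclic AMP response element TGACGTCA in 3.33% and 1.79%. The same search found the E-box CACGTG in 10% and 7.15%, the Egr letters GCGGGGGCG, which can overlap a GC box, in 1.67% and 2.91%, and the NRF1 motif in 0 of the Rab windows and 0.971% of all. Rab6a is printed as a CpG-rich promoter, Rab3a as the leading synaptic member with a ratio near the family median, and Rab3b and Rab42 as CpG-poor ones, all of genes called lower. Capitals mark each CpG, and letters run 5′ to 3′ on the gene's strand.
Rab6a, chr7:100607336-100607635, plus strand: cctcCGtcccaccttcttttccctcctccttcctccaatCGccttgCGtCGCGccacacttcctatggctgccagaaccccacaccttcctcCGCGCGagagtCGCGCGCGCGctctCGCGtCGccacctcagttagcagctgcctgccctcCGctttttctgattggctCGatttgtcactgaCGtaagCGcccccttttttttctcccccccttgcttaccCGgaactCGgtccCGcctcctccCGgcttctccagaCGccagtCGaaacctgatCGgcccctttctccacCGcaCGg
Rab3a first start, chr8:70754453-70754752, plus strand: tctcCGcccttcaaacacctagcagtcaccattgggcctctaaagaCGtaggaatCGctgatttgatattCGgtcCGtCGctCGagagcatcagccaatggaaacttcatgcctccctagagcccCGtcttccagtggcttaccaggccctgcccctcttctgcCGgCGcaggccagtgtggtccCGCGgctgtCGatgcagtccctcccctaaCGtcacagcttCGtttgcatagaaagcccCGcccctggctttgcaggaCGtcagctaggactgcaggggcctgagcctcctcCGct
Rab3a second start, chr8:70754852-70755151, plus strand: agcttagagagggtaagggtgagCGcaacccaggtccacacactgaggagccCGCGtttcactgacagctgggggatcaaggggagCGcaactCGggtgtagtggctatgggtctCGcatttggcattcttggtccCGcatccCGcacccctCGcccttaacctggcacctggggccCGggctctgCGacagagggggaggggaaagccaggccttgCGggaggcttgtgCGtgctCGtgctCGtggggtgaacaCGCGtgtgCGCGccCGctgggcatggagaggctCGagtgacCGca
Rab3b, chr4:108878820-108879119, plus strand: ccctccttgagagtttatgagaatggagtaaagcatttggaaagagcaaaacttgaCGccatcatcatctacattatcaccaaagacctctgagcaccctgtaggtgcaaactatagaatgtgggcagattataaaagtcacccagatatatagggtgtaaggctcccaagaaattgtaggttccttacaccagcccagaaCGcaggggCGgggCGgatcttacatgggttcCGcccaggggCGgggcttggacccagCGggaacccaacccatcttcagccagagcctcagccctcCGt
Rab42, chr4:132303307-132303606, minus strand: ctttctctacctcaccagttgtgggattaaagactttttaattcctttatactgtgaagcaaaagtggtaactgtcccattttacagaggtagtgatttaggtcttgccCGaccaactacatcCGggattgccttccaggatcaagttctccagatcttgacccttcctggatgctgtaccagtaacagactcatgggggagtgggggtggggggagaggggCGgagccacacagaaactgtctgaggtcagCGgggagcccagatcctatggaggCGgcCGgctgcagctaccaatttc
The Rab6a window held 29 CpGs, with an observed to expected ratio of 1.18, and the Rab3a windows 18 and 22, with ratios of 0.69 and 0.70. The Rab3b window held 8 CpGs (ratio 0.40) and the Rab42 window 6 (ratio 0.30). The log2 change was −0.87 for Rab6a and −1.02 for Rab3a, and −1.0 and −2.37 for the printed CpG-poor genes, Rab3b and Rab42. Other lower members with CpG-poor windows changed less: Rab33a (ratio 0.272) by −0.75, Rab32 (0.406) by −0.68 and Rab9 (0.425) by −0.41. DNA methylation was not measured in these libraries, and a CpG in a window is a description of its letters.

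Of the 8 tested Rab genes of regulated secretion and synaptic vesicles, 6 were lower and none was higher. Rab3a (ENSMUSG00000031840, chr8:70754679-70758677, plus strand) binds RIM and rabphilin on synaptic vesicles. It had 124, 144 and 149.5 CPM in OE-M and 326, 126 and 149 CPM in OE-F, against 338, 323 and 340.3 CPM in CON-M and 327, 375 and 326 CPM in CON-F. The 5 OE libraries other than OE-F 1 were all far below every CON library, while OE-F 1 was inside the CON range. The log2 change was −1.02 ± 0.18 (SE; adjusted p = 0.000787), and without OE-F 1 it was −1.3 (adjusted p = 1.09e-09). The Rab3a span overlaps Mpv17l2 on the opposite strand by 29 bases. Rab3b (ENSMUSG00000003411, chr4:108879063-108943324, plus strand), known for its part in presynaptic plasticity at inhibitory terminals, had 20.9, 18.6 and 25.9 CPM in OE-M and 41.7, 20.9 and 20.2 CPM in OE-F, against 51.6, 46.7 and 53.2 CPM in CON-M and 42, 51.7 and 50.2 CPM in CON-F. Here all 6 OE libraries were below all CON libraries, with a log2 change of −1.0 ± 0.16 (SE; adjusted p = 0.000494). Without OE-F 1 it was −1.24 (adjusted p = 2.79e-08).

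Rab3c (ENSMUSG00000021700, chr13:110054187-110280996, minus strand), a further vesicle-bound paralog, had 248, 264 and 261 CPM in OE-M and 512, 313 and 278 CPM in OE-F, against 561, 544 and 502 CPM in CON-M and 532, 524 and 544 CPM in CON-F. OE-F 1 was again within the CON range and the other 5 OE libraries below it, and the log2 change was −0.80 ± 0.12 (SE; adjusted p = 0.000378), and without OE-F 1 it was −0.97 (adjusted p = 1.39e-09). Rab26 (ENSMUSG00000079657, chr17:24527241-24534210, minus strand), which has been linked to vesicle clusters and autophagy at synapses, had 11.2, 7.81 and 7.5 CPM in OE-M and 9.67, 9.66 and 8.77 CPM in OE-F, against 18, 14 and 16.4 CPM in CON-M and 15.8, 15.7 and 17.2 CPM in CON-F. In CPM, OE-F 1 stood among the other OE libraries and below all CON libraries in this gene. In FPKM it was at 12.5, above the other 5 OE libraries (6.76 to 8.96) and below all CON libraries (14.1 to 19.1). The log2 change was −0.83 ± 0.11 (SE; adjusted p = 0.000264), and −0.86 without OE-F 1. The annotated Rab26 span overlaps Traf7 on the same strand by 698 bases. Rab27b, which acts in exocytosis of dense-core granules and exosomes, changed by −0.59 ± 0.10 (SE; adjusted p = 0.000734) and Rab3d by −0.45 ± 0.11 (SE; adjusted p = 0.00424) on the log2 scale. The remaining members of the role did not pass: Rab37 stood at −0.69 (adjusted p = 0.178) and Rab27a at 0.02 (adjusted p = 0.934).

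**Figure D4:**
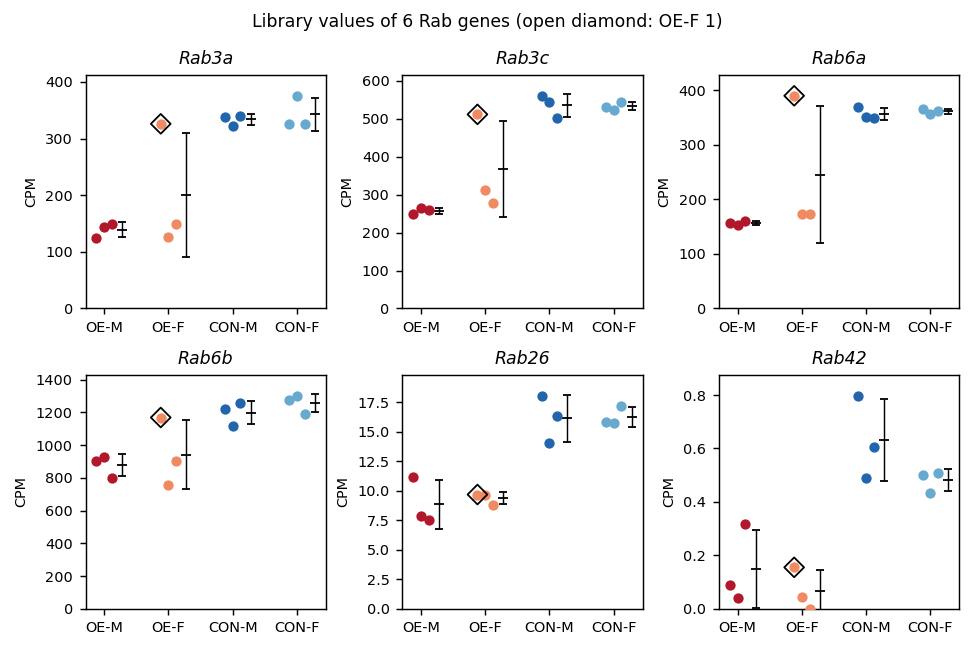
CPM in each library of Rab3a, Rab3c, Rab6a, Rab6b, Rab26 and Rab42, with mean and SD of 3 libraries per group beside the points and OE-F 1 ringed by a diamond. In Rab3a, Rab3c and Rab6a, OE-F 1 lies at the CON level and the other 5 OE libraries well below; in Rab26 and Rab42 it lies among the other OE libraries.

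The ER and Golgi Rab genes gave 10 lower of 11 tested, with a median log2 change of −0.60. Rab1a and Rab1b direct transport from the ER to the Golgi. Rab1a (ENSMUSG00000020149, chr11:20201432-20226856, plus strand) had 90.9, 98.9 and 97.8 CPM in OE-M and 153, 83.9 and 89.97 CPM in OE-F, against 180.5, 161 and 168 CPM in CON-M and 186, 173 and 169 CPM in CON-F. Every OE library was below every CON library, OE-F 1 by the smallest margin, and the log2 change was −0.76 ± 0.12 (SE; adjusted p = 0.000501). Rab1b changed by −0.40 ± 0.11 (SE; adjusted p = 0.00785), a call that was lost without the 3 CON libraries that held liver transcripts (−0.42, adjusted p = 0.0655). Rab2a and its paralog Rab2b act in tethering at the Golgi. Rab2a (ENSMUSG00000047187, chr4:8535644-8607778, plus strand) had 109.8, 116 and 104 CPM in OE-M and 179.9, 97.2 and 106 CPM in OE-F, against 224, 192 and 199.5 CPM in CON-M and 208, 232 and 205 CPM in CON-F. Rab2b (ENSMUSG00000022159, chr14:52261759-52279545, minus strand) had 17.1, 20.4 and 18.4 CPM in OE-M and 26.2, 17.6 and 18.8 CPM in OE-F, against 30.1, 28.5 and 28 CPM in CON-M and 32.6, 31.6 and 28.7 CPM in CON-F. Neither gene had an OE library inside the CON range. Rab2a changed by −0.83 ± 0.13 (SE; adjusted p = 0.000414) and Rab2b by −0.60 ± 0.10 (SE; adjusted p = 0.000522). Without OE-F 1 the log2 changes were −0.94 for Rab1a, −1.01 for Rab2a and −0.72 for Rab2b. Rab2b overlaps Tox4 on the opposite strand by 400 bases, and the sources used here do not say whether counting used strand.

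Rab6a and Rab6b direct retrograde transport within the Golgi and the exit of secretory carriers. Rab6a (ENSMUSG00000030704, chr7:100607410-100641268, plus strand) had 156, 154 and 161 CPM in OE-M and 390.0, 174 and 173 CPM in OE-F, against 369, 350.3 and 349 CPM in CON-M and 366, 357 and 362 CPM in CON-F. OE-F 1 was above all CON libraries and the other 5 OE libraries were far below them. With all libraries the log2 change was −0.87 ± 0.17 (SE; adjusted p = 0.00105), and without OE-F 1 it was −1.14 (adjusted p = 1.89e-10). Its span overlaps Mrpl48 on the opposite strand by 892 bases and Gm14382 on the same strand by 437 bases. Rab6b (ENSMUSG00000032549, chr9:103111787-103185276, plus strand) had 904, 929 and 799.6 CPM in OE-M and 1169, 756 and 904 CPM in OE-F, against 1219, 1119 and 1260.5 CPM in CON-M and 1276, 1300.0 and 1193 CPM in CON-F. OE-F 1 was again in the CON range and the other 5 OE libraries below it, with a log2 change of −0.43 ± 0.09 (SE; adjusted p = 0.002), and of −0.54 without OE-F 1. The call was lost without the 3 CON libraries that held liver transcripts (log2 change −0.40, adjusted p = 0.0507).

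Rab30 (ENSMUSG00000030643, chr7:92741603-92844535, plus strand), a Golgi Rab, had 41.8, 43.6 and 45.8 CPM in OE-M and 67.8, 52.1 and 46.1 CPM in OE-F, against 72.2, 74.1 and 75.4 CPM in CON-M and 82.3, 74.4 and 85.3 CPM in CON-F. All OE libraries were lower than all CON libraries, with a log2 change of −0.65 ± 0.09 (SE; adjusted p = 0.000272), and of −0.76 without OE-F 1. Rab18, which sits on the ER and lipid droplets, changed by −0.60 ± 0.11 (SE; adjusted p = 0.000925). Rab33a and Rab33b, of the Golgi and of autophagosome formation, changed by −0.75 ± 0.19 (SE; adjusted p = 0.00597) and −0.30 ± 0.08 (SE; adjusted p = 0.00618). Rab43 did not pass, at 0.12 (adjusted p = 0.595), and overlaps Gm45140 on the same strand.

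Among the early endosome Rab genes, 4 of 6 were lower. The Rab5 proteins drive fusion of early endosomes and are encoded by a set of 3 genes. Rab5b (ENSMUSG00000000711, chr10:128677175-128696264, minus strand) had 109, 107 and 104 CPM in OE-M and 159.6, 103 and 114 CPM in OE-F, against 175, 159 and 165 CPM in CON-M and 181, 175 and 163 CPM in CON-F. OE-F 1 lay within the CON range and the others below it, and the log2 change was −0.55 ± 0.09 (SE; adjusted p = 0.000579), and without OE-F 1 −0.68. Rab5a changed by −0.62 ± 0.13 (SE; adjusted p = 0.00184) and Rab5c by −0.41 ± 0.09 (SE; adjusted p = 0.00292). The Rab5c call was lost without the 3 CON libraries that held liver transcripts (−0.38, adjusted p = 0.0527). Rab21, which binds integrins, changed by −0.39 ± 0.09 (SE; adjusted p = 0.00404). Rab22a at 0.02 (adjusted p = 0.803) and Rab31 at 0.06 (adjusted p = 0.465) did not pass, and in neither did the OE and CON libraries separate.

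Of 11 tested Rab genes of recycling and polarised delivery, 8 were lower and 1 was higher. Rab10 (ENSMUSG00000020671, chr12:3247428-3309969, minus strand), which acts in axon growth and in exocytosis of transporters, had 95.1, 94.1 and 104 CPM in OE-M and 122, 95.2 and 99 CPM in OE-F, against 137, 140.2 and 139 CPM in CON-M and 135, 144 and 141 CPM in CON-F. The OE libraries were all below the CON libraries, OE-F 1 nearest to them, and the log2 change was −0.46 ± 0.07 (SE; adjusted p = 0.000371). Rab35 (ENSMUSG00000029518, chr5:115631908-115647736, plus strand), which acts in fast recycling and neurite outgrowth, had 33.3, 35.3 and 35.3 CPM in OE-M and 57.3, 31.9 and 35.1 CPM in OE-F, against 63.4, 60.5 and 65.6 CPM in CON-M and 64.6, 69.6 and 62.6 CPM in CON-F. The OE libraries again lay below all CON libraries, OE-F 1 nearest to them, with a log2 change of −0.76 ± 0.12 (SE; adjusted p = 0.000431). Without OE-F 1 the log2 changes were −0.54 for Rab10 and −0.94 for Rab35.

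Rab14 (ENSMUSG00000026878, chr2:35180205-35201120, minus strand), of early endosomes and the trans-Golgi network, had 134, 139 and 129.6 CPM in OE-M and 204, 129 and 132 CPM in OE-F, against 214, 196 and 199 CPM in CON-M and 209.6, 201 and 213 CPM in CON-F. Its OE-F 1 value was inside the CON range, and the log2 change was −0.51 ± 0.10 (SE; adjusted p = 0.00126), and −0.66 without OE-F 1. Rab11a and Rab11b, of the slow recycling route that returns receptors to dendritic spines, changed by −0.70 ± 0.12 (SE; adjusted p = 0.000623) and −0.34 ± 0.08 (SE; adjusted p = 0.00378). The Rab11b call was lost without the 3 CON libraries that held liver transcripts (−0.30, adjusted p = 0.0781). Rab8b changed by −0.55 ± 0.11 (SE; adjusted p = 0.00127), while its paralog Rab8a stood at −0.22 (adjusted p = 0.0807). Rab4a and Rab4b, of fast recycling, passed narrowly at −0.33 ± 0.13 (SE; adjusted p = 0.0468) and −0.27 ± 0.10 (SE; adjusted p = 0.0341), and each lost its call in 11 alternatives. Leaving out OE-M 1, OE-M 3, OE-F 2, OE-F 3, CON-M 3, CON-F 2 or CON-F 3 alone ended both calls, CON-M 1 that of Rab4a and OE-M 2 that of Rab4b, with adjusted p-values up to 0.117. Rab4a overlaps Galnt2l on the same strand and Rab15 overlaps Fntb on the opposite strand. Rab15 did not pass at −0.16 (adjusted p = 0.11), although without OE-F 1 it was at −0.26 (adjusted p = 0.000298).

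Rab13 (ENSMUSG00000027935, chr3:90213695-90226385, plus strand), known from tight junctions of epithelia and endothelium, was the higher member of this role. It had 2.06, 3.08 and 3.73 CPM in OE-M and 2.33, 2.53 and 3.25 CPM in OE-F, against 1.83, 2.42 and 2.09 CPM in CON-M and 1.46, 2.25 and 0.884 CPM in CON-F. The ranges of OE and CON overlapped, the log2 change was 0.65 ± 0.23 (SE; adjusted p = 0.032), without OE-F 1 it was 0.68 (adjusted p = 0.0232), and the call was lost in 9 alternatives. These were both limma fits and the fits without OE-M 2, OE-M 3, OE-F 3, CON-M 1, CON-M 3, CON-F 1 or CON-F 3, with adjusted p-values up to 0.085. The endothelial and pericyte list given above was higher in the 5 OE libraries other than OE-F 1, and its part in this result was not tested.

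In the role of late endosomes, lysosomes and related organelles, 6 of 9 tested members were lower. Rab7 (ENSMUSG00000079477, chr6:87999106-88045270, minus strand) directs fusion of late endosomes with lysosomes and carries neurotrophin signalling endosomes along axons. It had 120.0, 133 and 142 CPM in OE-M and 207, 121 and 131 CPM in OE-F, against 226, 203 and 218 CPM in CON-M and 228, 231 and 211 CPM in CON-F. The 5 OE libraries were below all CON libraries, OE-F 1 was within their range, and the log2 change was −0.63 ± 0.11 (SE; adjusted p = 0.000838), and −0.79 without OE-F 1. Rab9b (ENSMUSG00000043463, chrX:136858147-136868755, minus strand), a neuronal paralog of the gene for endosome-to-Golgi transport Rab9, had 8.59, 8.43 and 10.9 CPM in OE-M and 18.6, 13.5 and 9.88 CPM in OE-F, against 22.9, 22.4 and 19.7 CPM in CON-M and 19.5, 24 and 26.1 CPM in CON-F. All OE libraries were below all CON libraries, with a log2 change of −0.97 ± 0.14 (SE; adjusted p = 0.000335), and of −1.12 without OE-F 1. Rab9 itself changed by −0.41 ± 0.09 (SE; adjusted p = 0.00223).

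Rab39b (ENSMUSG00000031202, chrX:75572046-75578231, minus strand), an X-linked gene whose loss in humans causes intellectual disability and early parkinsonism, had 28.9, 29.5 and 28.3 CPM in OE-M and 50.1, 29.4 and 32.1 CPM in OE-F, against 53.8, 48.5 and 49.7 CPM in CON-M and 52, 51.3 and 55.7 CPM in CON-F. OE-F 1 was in the CON range and the rest of OE below it, with a log2 change of −0.66 ± 0.11 (SE; adjusted p = 0.000588), and of −0.81 without OE-F 1. Rab12, of transferrin receptor degradation, changed by −0.61 ± 0.12 (SE; adjusted p = 0.00145). Rab32 passed narrowly at −0.68 ± 0.27 (SE; adjusted p = 0.047), with a mean level of 0.576 FPKM, and lost its call in 15 alternatives, among them the fits without any single library but OE-M 3 and CON-M 2. Of the OE libraries only OE-M 1 reached the filter, at 0.5 FPKM, while CON stood at 0.38 to 1.09 FPKM. Rab32 was therefore tested only because of its CON values, which favours a lower call. Rab29 at −0.41 (adjusted p = 0.0903), Rab24 at −0.12 (adjusted p = 0.232) and Rab7b at −0.21 (adjusted p = 0.406) did not pass. Rab24 overlaps Prelid1 on the opposite strand by 1447 bases.

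The 4 genes tied to cilia and Hedgehog signalling included both lower and higher genes. Rab23, which restrains Hedgehog signalling, changed by −0.22 ± 0.07 (SE; adjusted p = 0.0167) and Rab28 by −0.34 ± 0.09 (SE; adjusted p = 0.00774). The Rab23 call was lost with both limma fits, at −0.06 with adjusted p-values of 0.647 and 0.646, and without the 3 CON libraries that held liver transcripts (−0.21, adjusted p = 0.152). Rab36 stood at 0.10 (adjusted p = 0.263). Rab34 (ENSMUSG00000002059, chr11:78188430-78192193, plus strand), needed for the early steps of cilium formation, was higher, with 8.68, 10.2 and 10.2 CPM in OE-M and 5.32, 7.13 and 8.86 CPM in OE-F, against 6.3, 7.43 and 5.77 CPM in CON-M and 5.29, 7.18 and 4.04 CPM in CON-F. OE-F 1 was the lowest OE library and the ranges overlapped. The log2 change was 0.47 ± 0.16 (SE; adjusted p = 0.0221), without OE-F 1 it was 0.54 (adjusted p = 0.00348), and the call was lost when any of OE-F 3, CON-M 3 or CON-F 3 was left out, with adjusted p-values up to 0.0632. Of the Rab40 genes, whose proteins carry a SOCS box for ubiquitin ligases, Rab40b changed by −0.63 ± 0.12 (SE; adjusted p = 0.00136) and Rab40c, which overlaps Cox7c-ps1 on the opposite strand, stood at −0.08 (adjusted p = 0.329).

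Rab42 (ENSMUSG00000089687, chr4:132302197-132303385, minus strand) had the lowest fitted value of the family, from few reads. It had 2, 1 and 8 counts in OE-M and 4, 1 and 0 counts in OE-F, against 23, 15 and 20 counts in CON-M and 15, 12 and 15 counts in CON-F. Summed, these were 16 counts in OE and 100 counts in CON, and scaled by library size the CON level was 4.98 times the OE level, with a 95% interval of 2.92 to 9.05 that covers counting error only. The fitted log2 change was −2.37 ± 0.55 (SE; adjusted p = 0.00325), and without OE-F 1 it was −3.12 (adjusted p = 0.000686). OE-F 1 lay with the other OE libraries in this gene, and all 6 were below all CON libraries. Of the OE libraries only OE-M 3 reached the 0.5 FPKM of the filter, at 0.57, while CON stood at 0.87 to 1.56 FPKM. Rab42 was therefore tested only because of its CON values, which favours such a separation.

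In males alone, 34 of the 52 members were lower and 1, Rab34, was higher, where 22.7% of all tested genes were lower and 20.4% higher. In females alone, 12 members were lower and none was higher, where 4.38% of all tested genes were lower and 4.73% higher. Without OE-F 1 the female comparison gave 39 lower and 1 higher, where 25.3% and 21.8% of all tested genes were lower and higher. When any other single library was left out, the female count was 0 to 3. Rab3a, for example, changed by −1.26 (adjusted p = 0.00276) in males and −0.77 (adjusted p = 0.0645) in females, and Rab9b by −1.22 (adjusted p = 0.00129) in males and −0.72 (adjusted p = 0.0416) in females. Without OE-F 1 the female changes were −1.325 (adjusted p = 2.29e-07) for Rab3a and −0.996 (adjusted p = 0.000233) for Rab9b. No member passed for the male change minus the female change with edgeR, DESeq2 or limma (0.0% of all tested genes with edgeR), and 1 had an unadjusted p below 0.05 with each tool. Their adjusted p-values with edgeR were 0.679 to 0.985. Between CON-F and CON-M likewise none passed with any of these tools (0.0253% of all tested genes with edgeR), and 2, 2 and 1 had an unadjusted p below 0.05 with edgeR, DESeq2 and limma.

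OE-F 1 did not sit at the CON level in every member. Its median log2 difference from the CON mean over the 52 members was −0.07, where the other 5 OE libraries ran from −0.61 to −0.53. The same median over all tested genes was 0.00 in OE-F 1 and 0.00 to 0.02 in the others. In CPM, of the 38 members called lower, OE-F 1 was within the CON range in 22, below all CON libraries in 15 and above all of them in 1, Rab6a. It was above all other OE libraries in 33 and among them in 5. Its Dnmt3l level, 45.8 CPM, compares with 20.7 to 27.0 CPM in the other OE libraries.

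The change was unequal in some pairs of paralogs, which share a recent ancestor and often a membrane. Ratios of FPKM were formed for 20 pairs within subfamilies, chosen after the data had been seen, and compared by two-sided exact permutation tests with adjustment over the 20 pairs. Pairs that share a member are not independent. With all libraries, 2 pairs passed, both at the smallest p that the design allows, 0.00216 (adjusted p = 0.0216). Rab9/Rab9b was 3.88 ± 0.67 in OE and 2.58 ± 0.21 in CON (SD, n = 6 each), and all OE libraries were above all CON libraries. Rab2a/Rab2b was 7.42 ± 0.90 in OE and 8.99 ± 0.45 in CON, with all OE libraries below all CON libraries. That separation depends on the measure, as ratios of CPM overlapped for this pair. Rab2a and Rab2b stood at 179.9 and 26.2 CPM in OE-F 1, and at 207.5 and 32.6 CPM in CON-F 1. Ratios of CPM for Rab9/Rab9b did not overlap.

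Without OE-F 1, 13 of the 20 pairs passed. The share of gene pairs outside the family that would pass was not computed, so these counts describe the 20 pairs and nothing particular to Rab genes. Rab6a/Rab6b was 0.291 to 0.422 in the 5 OE libraries, 0.546 in OE-F 1 and 0.448 to 0.511 in CON. Rab3a/Rab3c was 2.62 to 3.635 in the 5 OE libraries, 4.27 in OE-F 1 and 3.84 to 4.75 in CON. Rab5a/Rab5c was 0.545 to 0.672 in the 5 OE libraries, 0.84 in OE-F 1 and 0.675 to 0.895 in CON. By contrast Rab3a/Rab3b, at 8.17 ± 1.72 in OE and 8.33 ± 0.57 in CON (exact permutation p = 0.697, adjusted p = 0.697), and Rab4a/Rab4b, at 1.00 ± 0.17 in OE and 1.07 ± 0.13 in CON (exact permutation p = 0.457, adjusted p = 0.481), passed neither with nor without OE-F 1.

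**Figure D5:**
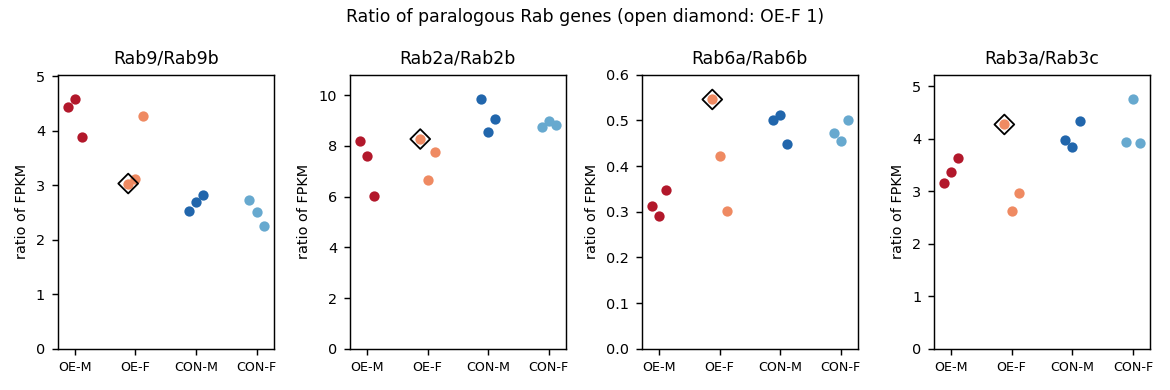
Ratio of FPKM of 4 paralog pairs in each library (points), by group, with OE-F 1 ringed by a diamond. Rab9/Rab9b is higher and Rab2a/Rab2b lower in all OE than in all CON libraries; in Rab6a/Rab6b and Rab3a/Rab3c only OE-F 1 among the OE libraries lies at or above the lowest CON value.

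The size of the change was spread across levels of expression. Of the 36 members with 10 FPKM or more, 29 were lower and none higher, and of the 16 tested members below 10 FPKM, 9 were lower and 2 higher. Across the 52 members, Spearman's rho between the log2 change and mean level was −0.17, and between the log2 change and gene length −0.01; the members share the 12 libraries, and these values are descriptions.

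Genes that act on Rab proteins moved in both directions. Of 127 regulator and effector genes in the lists, 122 were tested, and 25 were higher (20.49%) and 38 lower (31.15%), where 25.2% and 26.4% of all tested genes were higher and lower. Without OE-F 1, 25 were higher (20.49%) and 52 lower (42.62%), where 30.1% and 32.8% of all tested genes were higher and lower. Among GDP dissociation inhibitor, escort and prenylation genes, 6 of 8 (75%) were lower and none higher, with a median log2 change of −0.45. Without OE-F 1, 7 of the 8 were lower. Chm, the Rab escort protein, stood at 44.3 ± 6.94 CPM in OE and 61.7 ± 3.35 CPM in CON (SD, n = 6 each; log2 change −0.48 ± 0.07, adjusted p = 0.000431). Rabif, a chaperone of nucleotide-free Rab proteins, stood at 12.3 ± 2.38 CPM in OE and 18 ± 1.11 CPM in CON (log2 change −0.56 ± 0.10, adjusted p = 0.00082). Rabggtb, the beta subunit of the geranylgeranyl transferase, stood at 14.3 ± 3.75 CPM in OE and 19.8 ± 1.61 CPM in CON (log2 change −0.49 ± 0.11, adjusted p = 0.00328).

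Of 33 exchange factors, 12 were higher and 6 lower, 36.36% and 18.18%, against 25.2% and 26.4% of all tested genes. Without OE-F 1, 12 were higher and 10 lower, 36.36% and 30.3%, against 30.1% and 32.8% of all tested genes. The higher ones with the most change were Dennd1c (0.72 ± 0.26, adjusted p = 0.0306), Rin3, which acts on Rab5 (0.70 ± 0.14, adjusted p = 0.00151), and Hps1, part of the complex that acts on Rab32 and Rab38 (0.68 ± 0.09, adjusted p = 0.000288). Lower were Rab3ip, known as Rabin8, which acts on Rab8 (−0.52 ± 0.11, adjusted p = 0.00156), Rabgef1, known as Rabex-5, which acts on Rab5 (−0.46 ± 0.12, adjusted p = 0.00665), and Dennd5b (−0.43 ± 0.11, adjusted p = 0.0057). The 33 GTPase-activating proteins gave 4 higher and 14 lower, 12.12% and 42.42%. Without OE-F 1 they gave 5 higher and 16 lower, 15.15% and 48.48%. Higher were Tbc1d4, which acts on Rab10 in insulin-regulated transport (0.70 ± 0.15, adjusted p = 0.00237), Tbc1d9b (0.53 ± 0.09, adjusted p = 0.000479) and Rab3gap1, a subunit of the Rab3 GTPase-activating complex (0.33 ± 0.07, adjusted p = 0.00182). Lower were Tbc1d25 (−0.48 ± 0.10, adjusted p = 0.00218), Tbc1d30 (−0.43 ± 0.14, adjusted p = 0.0232) and Tbc1d10b (−0.38 ± 0.09, adjusted p = 0.00334).

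Of 45 effectors, 8 were higher and 12 lower, 17.78% and 26.67%, the share lower being near the 26.4% of all tested genes. Without OE-F 1, 7 were higher and 17 lower, 15.56% and 37.78%, against 30.1% and 32.8% of all tested genes. Higher were Mlph, the Rab27 effector melanophilin (0.90 ± 0.23, adjusted p = 0.00607), Rab11fip1 (0.55 ± 0.17, adjusted p = 0.0159) and Mical1 (0.51 ± 0.08, adjusted p = 0.000522). Lower were Rab11fip2, which links Rab11 to myosin V (−0.69 ± 0.10, adjusted p = 0.000308), the exocyst subunit Exoc6 (−0.52 ± 0.10, adjusted p = 0.00141) and the motor Myo5b (−0.49 ± 0.12, adjusted p = 0.00385). Of the Rab kinases and phosphatase, Lrrk1 was higher (0.45 ± 0.10, adjusted p = 0.00242) and the other 2 tested genes did not pass. Without OE-F 1 those 2 genes were called lower. Values in these parentheses are log2 changes ± SE from the same edgeR fit. Of the regulators and effectors named, all kept direction and call without OE-F 1. The calls of Dennd1c, Rabgef1, Tbc1d4, Tbc1d30, Mlph, Rab11fip1, Myo5b and Lrrk1 were lost without the 3 CON libraries that held liver transcripts, with adjusted p-values of 0.053 to 0.25. Those of Dennd1c, Tbc1d30, Rab11fip1 and Lrrk1 were also lost with both limma fits. The Dennd1c call was lost without OE-M 1, OE-M 3, OE-F 3, CON-M 1, CON-F 1 or CON-F 2 alone (adjusted p up to 0.0929), and the Tbc1d30 call without OE-M 3 or OE-F 3 alone (adjusted p up to 0.0569).

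Transcript usage differed within a few members. Shares were computed for 80 transcripts, each with at least 50 mean counts in a gene with 2 or more such, and in 9 of them (11.2%) all 6 OE libraries lay on one side of all 6 CON libraries, where 5.57% of 25787 such transcripts of all genes did. The 80 transcripts came from 30 members, and the 9 from Rab3c, Rab14, Rab24, Rab27b and Rab36 only. Within a gene a fall in one share raises others, so the 9 are not separate observations and the percentages are descriptions. The counts per transcript are the authors' estimates, and isoforms that share exons cannot be split with certainty. In Rab36 the longer ENSMUST00000147802 took 63.3 ± 1.63% of the gene's counts in OE and 72.4 ± 1.56% in CON, while ENSMUST00000142507 took 25.6 ± 1.9% in OE and 19.2 ± 1.53% in CON (SD, n = 6 each). OE-F 1 was the OE library nearest to CON in both, at 65.1% and 23.4%. In Rab27b, ENSMUST00000121693 took 61.5 ± 5.77% in OE and 78.9 ± 2.83% in CON. In Rab24, which overlaps Prelid1 on the opposite strand, ENSMUST00000035242 took 52.2 ± 7.01% in OE and 68.5 ± 2.87% in CON. The separation was narrow, with OE-F 1 at 64.5% and CON-M 1 at 65.3%. In Rab14 the minor ENSMUST00000201896 took 14.8 ± 2.86% in OE and 8.77 ± 0.43% in CON, with OE-F 1 at 10.1% and the highest CON library, CON-F 3, at 9.1%.

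Circular RNAs of Rab host genes were sparse. The deposited circular RNA table, whose values are scaled junction reads, held 15 from 9 Rab genes. The circle at chr9:64725502-64728429 in Rab11a scored 123.5 ± 20.7 in OE and 132.8 ± 60.3 in CON (SD, n = 6 each), and was above 0 in all 12 libraries. A Rab6b circle at chr9:103160820-103163903 was also above 0 in all 12, at 35.8 ± 19.9 in OE and 64.3 ± 42.2 in CON. In both the ranges overlapped, and no test was made.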

How the data were processed

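RNA of 12 samples was sequenced after ribosomal RNA depletion with a kit that marks the second strand with dUTP, per the labels' protocols. The submitters' processing notes name build GRCm38, HISAT2 2.0.1, bedtools 2.17.0, HTSeq 0.6.1, cutadapt 1.9.1, DESeq2 and bcl2fastq 2.17.1.14. The counting program and its use of strand are not given in the sources used here. The authors deposited expected counts and FPKM per Ensembl transcript, and a score per circular RNA (junction reads scaled per library), per the file headers and values. The 12 small RNA libraries were not used here.

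Expected counts were summed per gene and rounded. Transcripts with no gene ID (0.533% to 0.601% of counts) were left out of scaling and tests. Genes with 0.5 FPKM in at least 3 libraries were tested with edgeR 4.0.16 (R 4.3.3; TMM, quasi-likelihood, 4 group means, all 12 libraries), adjusted by Benjamini-Hochberg at 0.05. The scripts were tested on simulated data. Alternatives were RLE and upper-quartile scaling, no filter, filterByExpr, DESeq2 1.42.0, limma 3.58.1 on log2(FPKM + 0.5) and log2(FPKM + 0.1), a replicate block, leaving out each library, and leaving out 3 CON libraries with liver transcripts. CPM values carry the TMM scaling. Ratios were tested with SciPy 1.17.1. The members and lists were chosen with earlier results of these data known. Values in every library are given for the 12 members with the smallest adjusted p and the 5 with the highest FPKM, and per list the 3 called regulators with the largest change in each direction are named; Rab13, Rab34 and Rab42 were added after their values were seen. In 18 pairs of libraries with the same number, deviations from group means correlated at −0.33 to 0.088, so the numbers were not taken as pairs.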

Additional observations from a re-analysis of the deposited data

Results flagged for a closer look

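In groups of 6 libraries of 1 genotype, a library was marked where its gap to its nearest neighbour, as a part of the group's range, exceeds Dixon's 95% critical value. Of 36 such groups tested 15 were marked, where chance marks about 1 in 20, and most of the 36 share the same libraries. OE-F 1 was the highest of the 6 OE libraries in 14 of them. For the share of gene counts taken by the Rab family it stood at 0.51%. Among synaptic and secretory genes it stood at 326 CPM for Rab3a, 41.7 CPM for Rab3b and 512 CPM for Rab3c. In the Golgi group it stood at 153 CPM for Rab1a, 180 CPM for Rab2a, 26.2 CPM for Rab2b and 390 CPM for Rab6a. Among endosomal genes it stood at 160 CPM for Rab5b, 122 CPM for Rab10, 204 CPM for Rab14, 57.3 CPM for Rab35, 207 CPM for Rab7 and 50.1 CPM for Rab39b. CON-F 2 was the highest of the 6 CON libraries for Rab3a, at 375 CPM.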

How the results depend on the processing

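Of the 38 members lower in OE, 30 were lower and passed in all 21 alternatives, and 8 lost the call in at least 1 (Rab1b, Rab4a, Rab4b, Rab5c, Rab6b, Rab11b, Rab23 and Rab32). No called member and no named regulator or effector changed direction. Of the members that did not pass, 4 with small positive changes were negative in some alternatives. With limma at pseudocounts of 0.5 and 0.1 these were Rab31 (−0.029 and −0.030), Rab43 (−0.139 and −0.145), Rab22a (−0.102 and −0.107) and Rab27a (−0.073 and −0.088). Without the 3 CON libraries that held liver transcripts, Rab22a was at −0.052 and Rab27a at −0.118. Leaving out 1 library at a time gave −0.010 to 0.039 for Rab22a, negative without OE-F 1 or CON-F 2, and −0.138 to 0.096 for Rab27a, negative without OE-M 1, OE-F 2, CON-M 3 or CON-F 1. Conversely, Rab8a, Rab15, Rab24, Rab29 and Rab40c passed as lower with both limma fits, Rab8a, Rab15 and Rab24 without OE-F 1, and Rab8a also without OE-M 2 or CON-M 2. The count of higher members was 1 with either limma fit. The number of members called in females was 20 with no filter on low values, 25 with DESeq2, and 6 and 4 with limma at pseudocounts of 0.5 and 0.1. Shares of all tested genes under these alternatives are not given, so the counts describe the members only. Without the 3 CON libraries that held liver transcripts, CON-F kept 1 library. The members' median log2 change in females was then −0.48, against −0.43 with all libraries. Regulators and effectors higher and lower were 12 and 18 without those libraries. Leaving out 1 library at a time gave 35 to 40 lower and 0 to 2 higher members, 28 to 38 called in males, 0 to 40 in females, 0 for the difference between the sexes and 0 between control females and males, and 22 to 26 higher and 30 to 52 lower regulators and effectors. The 40 in females arose without OE-F 1, and the 0 without any of OE-F 2, OE-F 3, CON-M 3, CON-F 1, CON-F 2 or CON-F 3. With the replicate block, where the numbers share only a label, 36 members were lower and 2 higher, 34 were called in males and 14 in females. At this depth genes with few reads, such as Rab42 and Rab32, rest on wide counting error.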
